A study of Homo sapiens with 6 samples.

Results

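The genes described here encode the subunits of the mitochondrial respiratory chain and ATP synthase. They were chosen by symbol, not by their values: every gene with a probe set paired with it alone and a symbol that starts with NDUFA, NDUFB, NDUFC, NDUFS, NDUFV, UQCR, ATP5, COX4, COX5, COX6, COX7 or COX8, or that is SDHA, SDHB, SDHC, SDHD, CYC1 or CYCS. This gave 75 genes of the 11963 with such a probe set, of which 73 passed a filter on low values (an intensity of 16 or more on at least 3 arrays) and were tested among 9241 genes. The symbol rule also took in 8 tested genes that are not subunits: the complex I assembly factors NDUFAF1, NDUFAF3, NDUFAF4 and NDUFAF7, the ATP synthase inhibitor ATP5IF1, the supercomplex factor COX7A2L, the pseudogene ATP5MC2P1 and the antisense RNA NDUFB2-AS1. That left 65 tested subunit genes, and these 8 are named as what they are wherever they are counted. The genes below the filter were the muscle isoform COX7A1 and the assembly factor NDUFAF5.

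The RNA came from LNCaP, a human prostate cancer cell line grown in RPMI medium, which makes the surface enzyme PSMA (prostate-specific membrane antigen) from the gene FOLH1. The 3 control arrays are of cells described as untreated, and the 3 knockdown arrays are of LNCaP cells transduced with a short hairpin RNA against PSMA. The labels give no empty vector for the controls, do not say whether the knockdown line was 1 clone, and do not say whether replicates were separate cultures. The p-values therefore rest on array-to-array spread, which could be technical alone. Values are log2 intensities of 1-colour Affymetrix arrays, where a difference of 1 is a 2-fold change, and differences are knockdown minus control. An array value is the RNA of a whole culture, so fewer cells that make a transcript and less of it per cell cannot be told apart.

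The respiratory chain sits in the inner mitochondrial membrane. Complex I (NADH dehydrogenase) and complex II (succinate dehydrogenase) pass electrons to ubiquinone, complex III (the cytochrome bc1 complex) passes them to cytochrome c, and complex IV (cytochrome c oxidase) passes them to oxygen. Complexes I, III and IV pump protons, and complex V (ATP synthase) uses the proton gradient to make ATP. Complexes I, III, IV and V are built from nuclear genes, measured here, and from genes of mitochondrial DNA, which are not analysed here, whereas complex II is encoded in the nucleus alone. Prostate epithelium is known for exporting citrate instead of oxidising it, and prostate cancer cells oxidise more of it.

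The target was lower in every knockdown array. The brightest probe set, shared by FOLH1 and its near copy FOLH1B, read 12.53, 12.54 and 12.47 in control arrays and 10.28, 10.16 and 10.29 in knockdown arrays. Luminal prostate markers were bright, with 7 of 7 measured markers past the filter. Of these, KLK2 (9.35 to 9.76) and TMPRSS2 rose, KLK3 (8.25 to 7.54) and HOXB13 fell, and KRT18, KRT8 and EPCAM were not called. Their summed intensities overlapped between the groups, at 7140 to 7399 in control and 6794 to 7316 in knockdown arrays. The endothelial (65.8 to 68.9 against 65.1 to 72.6), leukocyte (45.4 to 53.1 against 47.3 to 49.5), basal and neuroendocrine lists were near background, with PTPRC, CDH5, KRT14, CHGA and INSM1 below the filter. The 5 fibroblast and muscle markers summed to 243.8 to 256.6 in control and 359.8 to 371.4 in knockdown arrays, through COL3A1 and ACTA2. Control probe sets of the arrays separated the groups as well. The 18 hybridisation controls averaged 11.34 ± 0.08 in the control arrays (SD, n = 3), against 10.51 ± 0.13 for knockdown (SD, n = 3). The 5′ relative to 3′ signal was lower in knockdown arrays by a log2 difference of -0.82 for beta-actin, -0.97 for the spiked-in dap RNA and -0.10 for GAPDH (exact permutation test, two-sided, p = 0.1 each, the smallest possible with 3 against 3). The spiked-in lys, phe and thr pairs were lower too, by -0.36, -0.57 and -0.34, without overlap of the groups. Second pairs for dap, lys and phe differed by -0.96, -0.31 and -0.41, also without overlap. The trp pair differed by -0.10, with overlap. The shift was not shared by all such pairs. The 18S ribosomal RNA pair was higher in knockdown arrays by 0.09, without overlap of the groups. The bioB, bioC, bioD and cre pairs of the hybridisation controls differed by -0.02, -0.05, 0.00 and -0.03. The part of these marker and array control differences in the results below was not tested.

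Respiratory chain genes changed little and in both directions. The largest rises were those of COX5B of complex IV, NDUFB7 and NDUFA2 of complex I and ATP5MC2 of complex V, and the largest falls were those of ATP5F1D of complex V and UQCRC1 of complex III. Of the 73 genes tested, 21 rose (28.8%) and 9 fell (12.3%) at a limma adjusted p under 0.05. Over all 9241 genes, 19.4% rose and 16.5% fell, 35.9% in all. No member changed 2-fold: the differences ran from -0.50 for ATP5F1D to 0.56 for COX5B. The median difference was 0.06 for the members and 0.03 for all genes tested. Subunits alone gave 19 rises and 9 falls in 65. The standard error of a difference had a median of 0.054 among members and 0.066 among all genes, so small differences passed the test somewhat more readily among members. The arrays of the 2 groups did not overlap for 48 of the 73 members, where 49.4% of all genes tested had arrays that did not overlap.

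**Figure D1:**
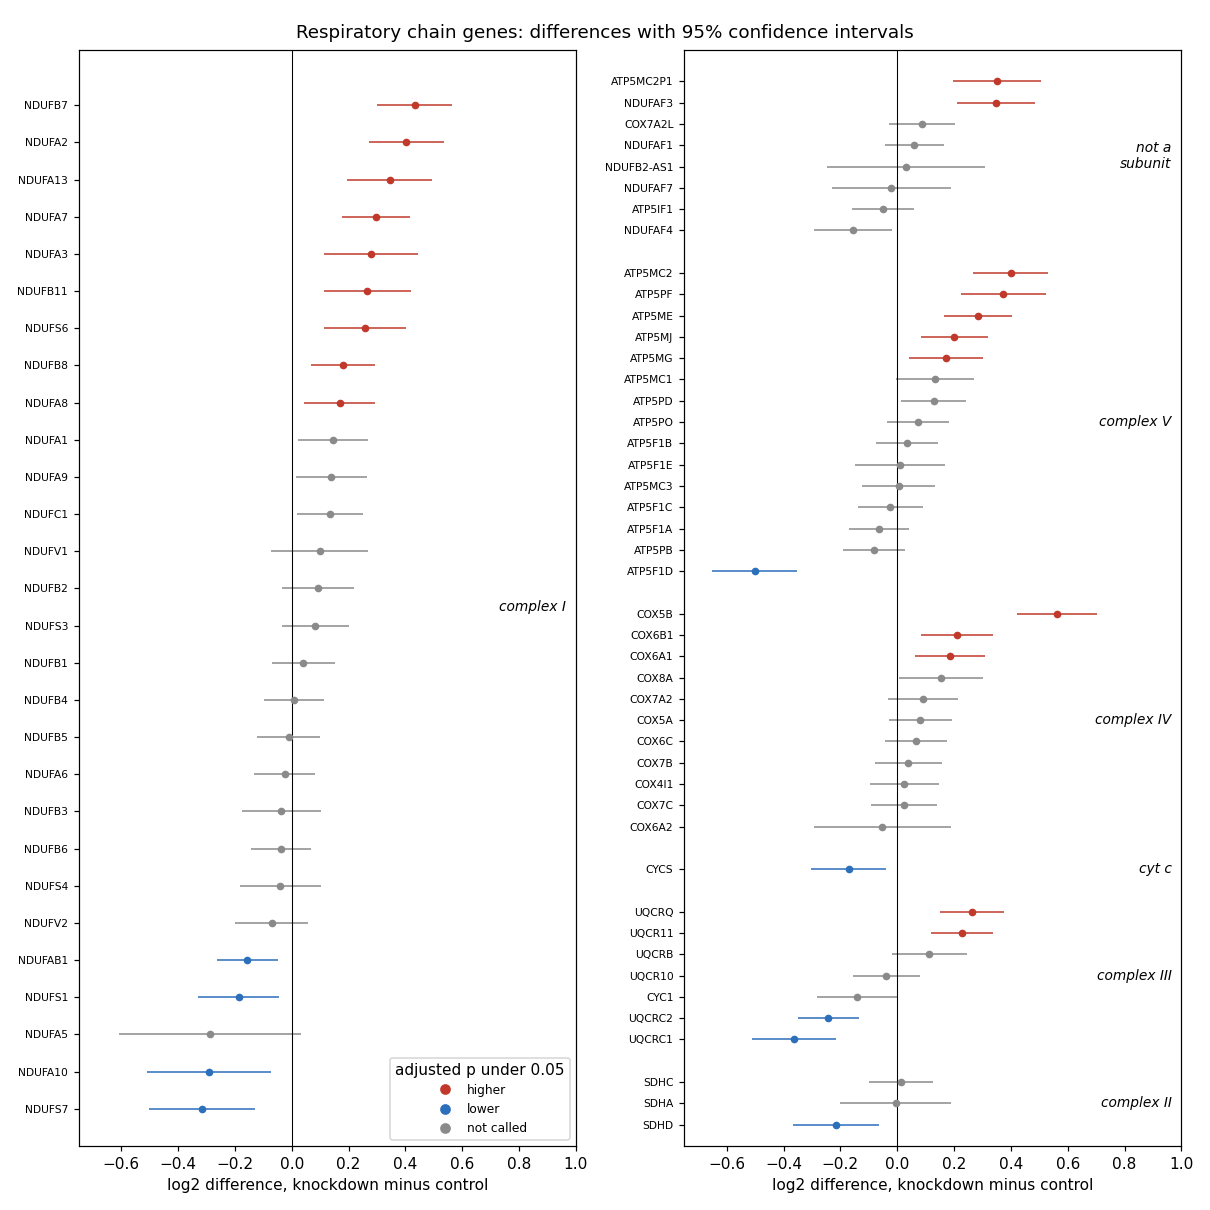
Log2 differences (knockdown minus control) of the 73 respiratory chain genes tested, by complex, with bars for the 95% confidence interval from limma; red and blue mark an adjusted p under 0.05. Complex I holds 9 rises and 4 falls among 28 genes, complex IV 3 rises and no fall among 11, and all differences lie between -0.50 and 0.56. Over all genes tested, 19.4% rose and 16.5% fell.

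**Figure D2:**
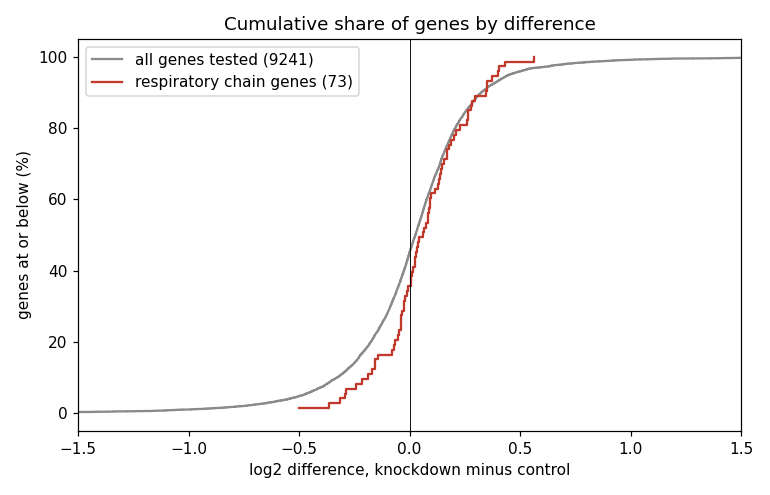
Cumulative share of genes (%) by log2 difference for the 73 respiratory chain genes and for all 9241 genes tested. The member curve spans -0.50 to 0.56 and crosses 50% at 0.06, against 0.03 for all genes.

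Promoters of 4 genes with clear calls are shown because nuclear respiratory genes are known for carrying sites of NRF1, of ETS factors such as GABPA and of YY1. Each line gives the 250 bases before the gene start, 5′ to 3′ on the gene's strand, from the RefSeq table of build GRCh38.p14. Capitals mark a match to the ETS core CCGGAAG, or to the NRF1 pattern (GCGC, any base, then TGCGC), on either strand. COX5B lies at chr2:97645812-97646061 on the plus strand, NDUFB7 at chr19:14572067-14572316 on the minus strand, UQCRQ at chr5:132866392-132866641 on the plus strand and UQCRC1 at chr3:48609647-48609896 on the minus strand.
COX5B: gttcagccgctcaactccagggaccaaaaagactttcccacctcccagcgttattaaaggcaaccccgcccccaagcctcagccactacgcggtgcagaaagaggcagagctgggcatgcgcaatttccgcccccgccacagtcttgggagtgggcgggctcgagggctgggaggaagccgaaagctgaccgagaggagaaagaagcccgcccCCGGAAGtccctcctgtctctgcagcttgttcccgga
NDUFB7: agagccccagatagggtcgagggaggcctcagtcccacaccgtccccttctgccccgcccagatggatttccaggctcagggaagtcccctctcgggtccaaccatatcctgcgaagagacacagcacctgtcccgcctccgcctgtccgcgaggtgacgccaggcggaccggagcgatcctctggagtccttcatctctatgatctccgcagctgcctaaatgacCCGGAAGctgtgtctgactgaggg
UQCRQ: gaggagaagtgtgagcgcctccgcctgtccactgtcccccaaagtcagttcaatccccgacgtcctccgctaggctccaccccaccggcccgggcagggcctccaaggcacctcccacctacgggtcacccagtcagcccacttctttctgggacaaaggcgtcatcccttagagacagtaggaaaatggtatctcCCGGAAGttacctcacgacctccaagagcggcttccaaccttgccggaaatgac
UQCRC1: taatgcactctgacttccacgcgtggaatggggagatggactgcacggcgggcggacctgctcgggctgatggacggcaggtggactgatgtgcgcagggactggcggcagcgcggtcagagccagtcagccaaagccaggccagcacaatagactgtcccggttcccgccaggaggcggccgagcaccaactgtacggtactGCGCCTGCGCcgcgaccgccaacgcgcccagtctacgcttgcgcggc
COX5B, NDUFB7 and UQCRQ rose and hold an ETS core close to the gene start, and UQCRC1 fell and holds the NRF1 pattern. These 4 are examples and do not show a split of patterns by direction. In the 300-base windows counted below, NDUFA2 and ATP5MC2, which also rose, held no ETS, NRF1 or YY1 pattern. NDUFS1 and SDHD, which fell, held the ETS core, and UQCRC1 held the YY1 pattern as well.

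Over windows of 300 bases (250 before to 50 after the gene start), 64 of the members had a promoter in the table. Of these, 18 (28.1%) held the ETS core, 13 (20.3%) the NRF1 pattern and 10 (15.6%) the YY1 pattern AAGATGGC, counted on both strands. Among all 27305 promoters of the table the shares were 10.7%, 6.28% and 3.03%. Those promoters include genes that were not tested here, so they are not a like set for the members. The ETS core was in 10 of 20 members that rose, 2 of 8 that fell and 6 of 36 that were not called. The NRF1 pattern was in 5, 2 and 6 of these, and the YY1 pattern in 3, 2 and 5. These matches describe letters in the window and carry no test.

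In complex I, 28 subunits were tested, and 9 rose (32.1%) and 4 fell (14.3%). Over all genes tested 19.4% rose and 16.5% fell, and these shares stand beside the counts of every complex below. The rises were all in accessory subunits, which surround the catalytic core: 9 of 23 rose (39.1%) and 2 fell (8.7%). Over the alternative settings, complex I had 3 to 12 rises. NDUFB7, in the membrane arm, read 10.19, 10.06 and 10.08 in control and 10.60, 10.52 and 10.51 in knockdown arrays. It was 1.35-fold higher (log2 difference 0.43, SE 0.06, adjusted p = 0.00115), on the brighter of its probe sets; the dimmer one differed by 0.13. NDUFA2, of the NADH-oxidising matrix arm, rose by 0.40 from 11.42, 11.46 and 11.49 to 11.92, 11.88 and 11.78 (adjusted p = 0.00147). The arrays of the groups were well apart for both genes. The other probe set of NDUFA2 lay near the filter level and differed by -0.02, so the call of this gene rests on 1 probe set.

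NDUFA13, also known as GRIM-19, rose by 0.34, from 11.33, 11.27 and 11.30 to 11.76, 11.64 and 11.54 (adjusted p = 0.0053). NDUFA7 rose by 0.30, from 10.99, 11.00 and 11.00 to 11.36, 11.28 and 11.24 (adjusted p = 0.00398). Knockdown replicate 1 was the highest and knockdown replicate 3 the lowest of the knockdown arrays for both. The rises of NDUFA3 (0.28), NDUFB11 (0.27), NDUFS6 (0.26), NDUFB8 (0.18) and NDUFA8 (0.17) were smaller, with adjusted p values from 0.0151 to 0.044. NDUFS6, which helps to build the matrix arm, went from 11.70, 11.66 and 11.61 to 12.00, 11.93 and 11.81. The 9 NDUFB subunits tested, all of the membrane arm, had 3 rises and no fall.

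None of the 5 core complex I subunits tested rose, and 2 fell. With 5 genes, and 19.4% of all genes rising, the absence of a rise says little. NDUFS7, which carries the iron-sulfur cluster next to the ubiquinone site, read 10.46, 10.28 and 10.34 in control and 10.18, 10.04 and 9.92 in knockdown arrays (log2 difference -0.32, SE 0.08, adjusted p = 0.0186). NDUFS1, the large iron-sulfur subunit, went from 10.36, 10.33 and 10.41 to 10.28, 10.14 and 10.12 (-0.19, adjusted p = 0.0473). The groups came close for NDUFS1, since knockdown replicate 1 lay just under the lowest control. NDUFV1, which binds NADH and flavin, differed by 0.10 (95% confidence interval -0.07 to 0.27), NDUFV2 by -0.07 (-0.20 to 0.06) and NDUFS3 by 0.08 (-0.03 to 0.20). Whether core and accessory subunits differ was not tested.

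The accessory subunits that fell were NDUFA10 and NDUFAB1. NDUFA6 differed by -0.02 on its brightest probe set and was not called. Its dimmer probe set differed by -0.24 (adjusted p = 0.00975 in the fit over all 15910 probe sets past the filter). NDUFA10 read 9.57, 9.52 and 9.50 in control and 9.41, 9.28 and 9.03 in knockdown arrays, with the largest spread among the knockdown arrays of any member that passed the test (-0.29, SE 0.09, adjusted p = 0.0444). NDUFAB1 is also the mitochondrial acyl carrier protein of fatty acid and lipoic acid synthesis. It went from 12.96, 12.99 and 13.00 to 12.84, 12.84 and 12.80 (-0.16, adjusted p = 0.0334). NDUFA5 had a difference as large as that of NDUFA10 (-0.29, 95% confidence interval -0.61 to 0.03) but did not pass (adjusted p = 0.141), and its arrays overlapped between the groups. NDUFA1, needed for assembly of the membrane arm, differed by 0.14 (adjusted p = 0.0685), while NDUFB4 and NDUFB1 differed by 0.01 and 0.04.

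**Figure D3:**
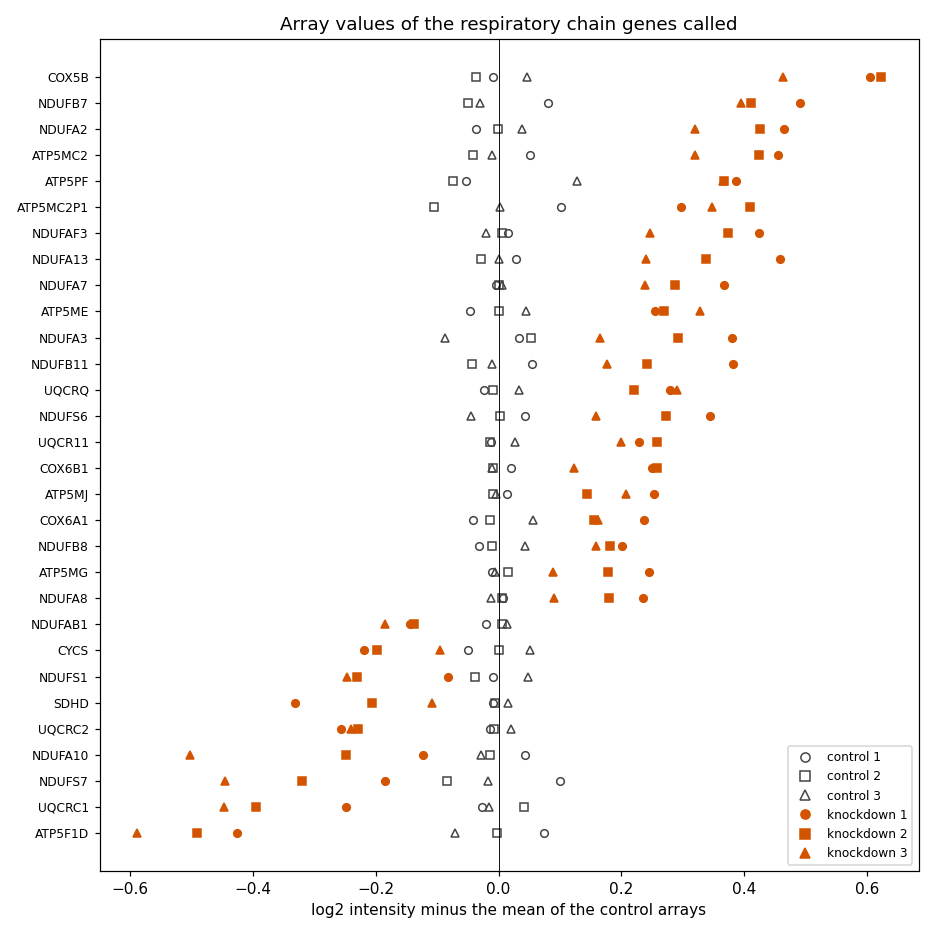
Log2 intensity of the 30 respiratory chain genes called, in each of the 6 arrays, minus the mean of the 3 control arrays of that gene; open dark symbols are control and filled orange symbols knockdown arrays. The genes shown were picked by the test on these same arrays, so a gap between the groups is built into the choice. The groups do not overlap in any of them, nor in 49.4% of all genes tested. Knockdown replicate 3 is the lowest of the knockdown arrays for 16 of the 21 rises and 6 of the 9 falls.

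Complex II gave 1 fall in 3 genes tested and no rise. SDHB, which the symbol rule names, had no probe set paired with it alone and was not tested. SDHD, a membrane anchor that holds heme and ubiquinone, read 10.84, 10.84 and 10.86 in control and 10.52, 10.64 and 10.74 in knockdown arrays (-0.22, SE 0.06, adjusted p = 0.0351). SDHA, the flavoprotein that oxidises succinate, read 10.19, 10.07 and 9.96 against 10.17, 10.10 and 9.93, a difference of -0.01 (95% confidence interval -0.20 to 0.19). The other anchor, SDHC, differed by 0.01 on the brightest of its 4 probe sets past the filter, which was not called. Its others differed by -0.11, -0.22 and -0.48, the last with an adjusted p of 0.00837 in the fit over all 15910 probe sets past the filter. With the mean of its probe sets SDHC was lower by -0.20 (adjusted p = 0.0472), so its direction depends on the probe set.

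In complex III both core proteins fell and 2 of the 4 small subunits tested rose, of 7 genes in all. Whether these classes differ was not tested. UQCRC1, a large core protein on the matrix side, read 10.58, 10.64 and 10.59 in control and 10.35, 10.21 and 10.16 in knockdown arrays (-0.36, SE 0.06, adjusted p = 0.00394). Its partner UQCRC2 went from 11.91, 11.92 and 11.95 to 11.67, 11.70 and 11.69 (-0.24, SE 0.05, adjusted p = 0.00532), and its other probe set differed by -0.27. The groups were far apart relative to the spread in both genes. CYC1, the heme-bearing cytochrome c1, differed by -0.14 and did not pass (adjusted p = 0.105), although its arrays did not overlap.

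Among the small subunits, UQCRQ, which packs against the cytochrome b core, rose from 12.31, 12.33 and 12.37 to 12.61, 12.56 and 12.62 (0.26, SE 0.05, adjusted p = 0.00503). UQCR11, the smallest, rose from 12.04, 12.04 and 12.08 to 12.29, 12.32 and 12.26 (0.23, adjusted p = 0.00783). UQCR10 differed by -0.04 (95% confidence interval -0.16 to 0.08). UQCRB differed by 0.11 on its brightest probe set, without passing, and by -0.20 on its dimmest (adjusted p = 0.0426). Cytochrome c itself, CYCS, which shuttles electrons from complex III to complex IV and triggers the apoptosome when released, read 13.01, 13.06 and 13.11 in control and 12.84, 12.87 and 12.97 in knockdown arrays (-0.17, adjusted p = 0.0493), just past the threshold.

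Complex IV had 3 rises (27.3%, against 19.4% of all genes) and no fall among 11 genes. The 10 widely expressed subunits all had positive differences, as had 5069 of all 9241 genes tested. That shared sign depends on the processing. Quantile normalization gave -0.02 for COX4I1 and -0.0005 for COX7C, and the mean of all probe sets gave -0.09 for COX4I1. COX5B, a zinc-binding subunit on the matrix side (gene at chr2:97646062-97648383), had the largest change of any respiratory chain gene. Its intensities were 3777, 3702 and 3924 in control and 5777, 5851 and 5239 in knockdown arrays. On the log2 scale these are 11.88, 11.85 and 11.94 against 12.50, 12.51 and 12.35, which is 1.48-fold higher (log2 difference 0.56, SE 0.06, adjusted p = 0.00044). All 4 of its probe sets moved alike, with differences from 0.56 to 0.67, and every knockdown array was above every control array on the probe set used.

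COX6B1, which faces the intermembrane space where cytochrome c docks, rose from 11.90, 11.87 and 11.87 to 12.13, 12.14 and 12.00 (0.21, adjusted p = 0.021). COX6A1, a regulatory subunit, rose from 12.54, 12.57 and 12.64 to 12.82, 12.74 and 12.75 (0.19, adjusted p = 0.0286). COX6B1 and COX6A1 each kept the call in 2 of 6 fits that left out 1 array, and COX5B alone was called without control replicate 2, knockdown replicate 1 or knockdown replicate 2. COX8A (0.15) and COX7A2 (0.09) did not pass. COX4I1, the regulatory subunit that binds ATP, differed by 0.03 (95% confidence interval -0.10 to 0.15) on its brightest probe set and by -0.33 on a dim one near 5.9 (adjusted p = 0.00311). COX7C differed by 0.02 and 0.00 on its bright probe sets and by 0.35 on a dimmer one (adjusted p = 0.00412). The muscle and heart isoform COX6A2 lay near the filter level in both groups, at 4.11 to 4.51 in control and 4.15 to 4.32 in knockdown arrays.

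**Figure D4:**
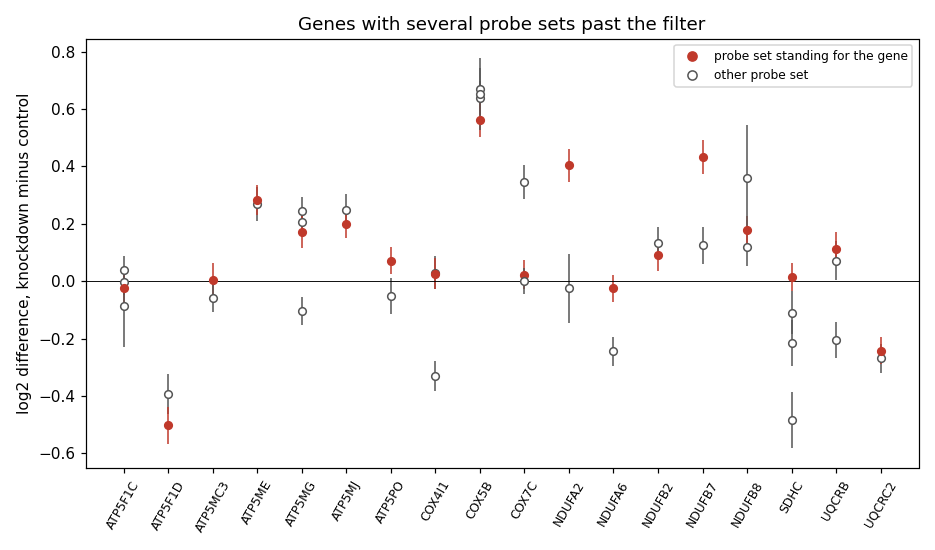
Log2 differences (knockdown minus control) with standard errors for the 18 genes that have several probe sets past the filter; red marks the brightest probe set, which stands for the gene. The 4 probe sets of COX5B lie between 0.56 and 0.67, whereas in 7 genes the probe sets lie more than 0.3 apart.

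Complex V had 5 rises and 1 fall in 15 genes (33.3% and 6.67%, against 19.4% and 16.5% of all genes). ATP5F1D, the delta subunit of the central stalk, had the largest fall of any member, from 11.85, 11.77 and 11.70 to 11.35, 11.28 and 11.19, or 1.42-fold (-0.50, SE 0.06, adjusted p = 0.000955). Its other probe set differed by -0.39. The catalytic beta subunit ATP5F1B differed by 0.03 (95% confidence interval -0.07 to 0.14) and the alpha subunit ATP5F1A by -0.07 (-0.17 to 0.04). Of the 5 subunits of the F1 head and central stalk, ATP5F1D alone passed.

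Of the 3 c ring genes tested, 1 rose. ATP5MC2 is 1 of the genes for the c ring, which turns as protons pass. It rose from 11.64, 11.55 and 11.58 to 12.05, 12.02 and 11.91 (0.40, SE 0.06, adjusted p = 0.00161). ATP5MC1 and ATP5MC3, which encode the same mature protein, differed by 0.13 and 0.01 and did not pass. The probe set for the pseudogene ATP5MC2P1 rose by 0.35 at much lower signal, and because the pseudogene is a near copy of ATP5MC2, this signal cannot be ascribed to either.

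The 3 membrane accessory subunits tested were all called higher in the main fit. ATP5MF, whose probe set is shared with ARMC2-AS1 and was outside the tests, differed by -0.01. ATP5ME, which helps to join ATP synthase dimers, rose from 12.00, 12.05 and 12.10 to 12.30, 12.32 and 12.38 (0.28, adjusted p = 0.00444). ATP5MJ rose by 0.20 (adjusted p = 0.0176). ATP5MG rose by 0.17 (adjusted p = 0.0463), but its 1 probe set that is not of the _x_at kind, which can match several transcripts, differed by -0.10. ATP5MG kept the call in 1 of 6 fits that left out 1 array. In the peripheral stalk, which holds the head still, ATP5PF rose from 12.06, 12.04 and 12.24 to 12.50, 12.48 and 12.48 (0.37, adjusted p = 0.00375). ATP5PD (0.13, adjusted p = 0.0771) and ATP5PB (-0.08) did not pass.

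Of the genes that are not subunits, the complex I assembly factor NDUFAF3 rose from 10.21, 10.20 and 10.18 to 10.62, 10.57 and 10.44 (0.35, adjusted p = 0.00349). NDUFAF4 differed by -0.16 (adjusted p = 0.0779) and NDUFAF1 by 0.06. The ATP synthase inhibitor ATP5IF1 differed by -0.05 (95% confidence interval -0.16 to 0.06), and COX7A2L, which joins complexes III and IV, by 0.09.

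For 42 of the 43 members that were not called, the 95% confidence interval of the difference lay within 0.5 of zero on the log2 scale. The exception was NDUFA5. This bound is about as wide as the largest changes of any member (-0.50 and 0.56), and 62 of all 73 members lay within it. It therefore does not mark a gene as unchanged. The intervals are those of the brightest probe set alone. SDHC, COX4I1, COX7C, NDUFA6 and UQCRB were among the genes with other probe sets that differed more. Knockdown replicate 3 was the lowest of the knockdown arrays in 25 of these 43 genes, as it was for most of the called genes. Without it 23 members rose and 5 fell. The falls were the less stable set. They numbered 3, 4 and 4 without control replicates 1, 2 and 3, 6 and 3 without knockdown replicates 1 and 2, and 4 with no filter on low values. Calls were lost over all genes too. The share of all genes that fell was 16.5% in the main fit, 12.8% to 14.7% without single arrays and 11.9% with no filter. The share that rose was 19.4% in the main fit and 13.8% to 18.5% without single arrays. UQCRC1, UQCRC2 and ATP5F1D were called lower in every alternative that tested them, whereas NDUFS7, NDUFS1, NDUFA10, NDUFAB1, SDHD and CYCS each lost the call without at least 3 of the 6 arrays taken singly. No complex I gene was called lower without control replicate 1, knockdown replicate 2 or knockdown replicate 3. The rises numbered 14 to 23 without single arrays, and 10 of the 21 were called in every alternative that tested them: COX5B, ATP5MC2, ATP5PF, ATP5ME, NDUFA13, NDUFA7, UQCRQ, UQCR11, NDUFAF3 and ATP5MC2P1. ATP5F1D, ATP5MC2, ATP5PF, ATP5ME, NDUFA13 and UQCR11 have no probe set past the filter outside the _x_at and _s_at kinds. They were therefore tested in 16 alternatives and the others in 17. NDUFA8, NDUFB8, NDUFA3 and ATP5MG lost the call without at least 3 single arrays, NDUFB11 and ATP5MJ without control replicate 2, and NDUFS6 without knockdown replicate 2.

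By position, all 8 members on chromosome 19 passed the test. NDUFB7, NDUFA13, NDUFA7, NDUFA3, UQCR11 and COX6B1 rose, while NDUFS7 and ATP5F1D fell. Of all 650 tested genes on that chromosome, 28.8% were called. The chromosome was singled out after its values were seen. Genes that rose spanned a median of 6.2 kb of the genome, those that fell 11.7 kb and those not called 9.94 kb. Over all genes tested the medians were 28.4, 40.4 and 27.3 kb. These spans are a description and carry no test.

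Other mitochondrial genes were counted from lists of the pathways that feed, build and regulate the chain. The TCA cycle and pyruvate dehydrogenase, which supply its electrons, had 3 rises and 8 falls in 16 genes tested, with a median difference of -0.15. Thus 18.8% of the list rose and 50% fell, where 19.4% and 16.5% of all genes did. SUCLA2, the ATP-forming beta subunit of succinyl-CoA ligase, read 10.42, 10.52 and 10.65 in control and 9.45, 9.64 and 9.72 in knockdown arrays (-0.93, adjusted p = 0.000247). Its GDP-forming counterpart SUCLG2 went the other way, from 9.59, 9.75 and 9.80 to 10.23, 10.37 and 10.39 (0.61, adjusted p = 0.000776), on 3 probe sets that rose by 0.58 to 0.68. DLD, the dihydrolipoyl dehydrogenase shared by pyruvate and oxoglutarate dehydrogenase, fell by 0.38 (adjusted p = 0.00137).

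Assembly factors, a list that includes the 4 tested here by symbol, had 5 rises and 7 falls in 27 (18.5% and 25.9%, against the same 19.4% and 16.5%). UQCC1, which helps the synthesis of cytochrome b for complex III, was the only listed gene changed at least 2-fold. It fell from 7.33, 7.43 and 7.33 to 5.92, 6.44 and 6.29 (-1.14, adjusted p = 0.000483). TMEM126B, of the complex I assembly machinery, fell by 0.44 (adjusted p = 0.00055), and COX20, which guides a mitochondrially made subunit of complex IV, fell by 0.46 at low signal (adjusted p = 0.00111).

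The mitochondrial ribosome, which makes the subunits encoded in mitochondrial DNA, had 9 rises and 8 falls in 50, with a median of 0.00. These shares, 18% and 16%, are near the 19.4% and 16.5% of all genes. MRPS18A rose by 0.75 and MRPS10 by 0.73, while MRPS31 fell by 0.52 (adjusted p from 5.93e-05 to 0.000493). Of 16 import genes, 6 rose and 2 fell (37.5% and 12.5%). TIMM13 rose by 0.54 (adjusted p = 0.000323) and TIMM8A, with which it forms an intermembrane chaperone, by 0.39 (adjusted p = 0.00369). Only 1 probe set of TIMM8A passed the filter, and averaging in the dim ones gave a difference of 0.00. TOMM22, a receptor of the outer membrane, fell by 0.36 (adjusted p = 0.0112).

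Of 16 regulators of respiratory genes, 3 rose and 2 fell (18.8% and 12.5%, against 19.4% and 16.5% of all genes). PPRC1, a coactivator related to PGC-1alpha, rose by 0.35 (adjusted p = 0.00256) and the orphan receptor ESRRA by 0.30 (adjusted p = 0.0165). ESRRA kept the call in 13 of 17 alternatives, and its other probe set past the filter differed by 0.19. GABPA, the ETS factor that binds respiratory promoters, rose from 6.68, 6.69 and 6.73 to 6.91, 7.04 and 6.98 (0.27, adjusted p = 0.00623) and is named after its value was seen. On the same list, GABPB1 differed by -0.09 (adjusted p = 0.2) and SSBP1 was called lower (-0.16, adjusted p = 0.0387). NRF1 differed by -0.01 (95% confidence interval -0.13 to 0.10). GABPB1, SSBP1 and NRF1 were also named after their values were seen. POLRMT, the mitochondrial RNA polymerase, was lower by -0.42 on its brightest probe set (adjusted p = 0.0108), while another probe set differed by 0.32, so its direction depends on the probe set.

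**Figure D5:**
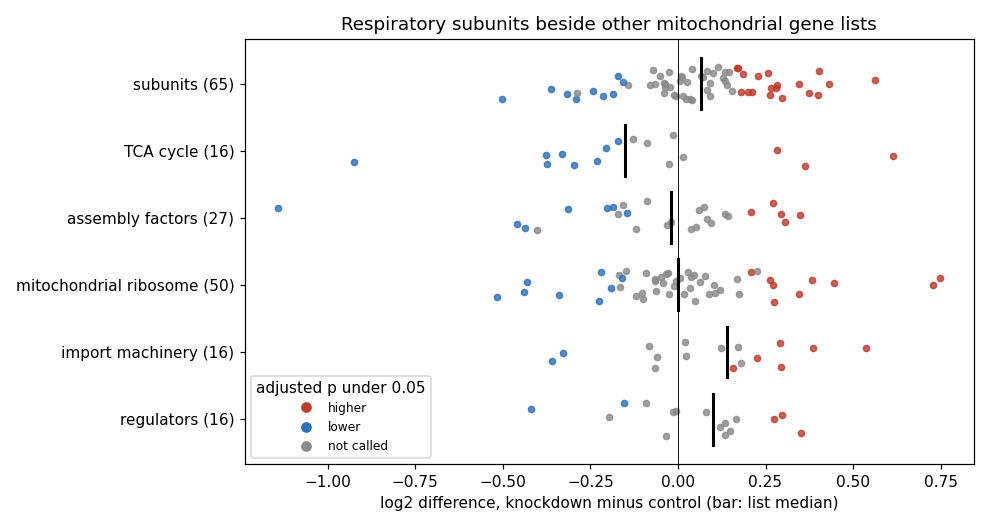
Log2 differences (knockdown minus control) of the 65 respiratory subunits and of the genes of 5 other mitochondrial lists, with the list median as a black bar; red and blue mark an adjusted p under 0.05, and points are spread vertically for visibility. The subunit median is 0.06, that of the TCA cycle list -0.15 and that of the mitochondrial ribosome 0.00.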

How the data were processed

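RNA of 3 control and 3 knockdown LNCaP samples was measured on 1-colour Affymetrix arrays. The deposited intensity values, on a linear scale, had been processed by the authors with GCRMA, per the submitters' processing notes. No GCRMA version or setting is given in the sources used here. They ran from 3.82 to 22631, with array medians from 48.2 to 50.3. Precision is limited by there being 3 arrays a group.

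Platform annotation paired 19064 of the 22277 probe sets with 1 symbol, and only these entered; updating through RefSeq (GRCh38.p14) changed 0 symbols. On the log2 scale, probe sets reaching 4 on at least 3 of 6 arrays were kept, and the brightest stood for its gene. limma 3.58.1 in R 4.3.3 compared the groups, and p-values were adjusted by Benjamini-Hochberg across the 9241 genes tested. Tests were checked on simulated data.

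The members, lists and tests were chosen with earlier results of these data known. Genes named were all called members, the extremes and brightest of each complex, members whose probe sets differed by over 0.3, tissue isoforms, and the 3 called genes of each list with the largest change. NDUFV1, NDUFV2, NDUFS3, ATP5F1B, ATP5MC3 and the uncalled genes that are not subunits were named outside this rule, after their values were seen, to complete their groups. NDUFA6 was also named outside it, for the difference of its dimmer probe set. Alternatives covered the filter, low values, normalization, probe set handling, variance model, array weights, the replicate number and leaving out each array. Mitochondrial DNA-encoded subunits are not analysed here.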

Additional observations from a re-analysis of the deposited data

How the results depend on the processing

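Alternatives for the members were those listed at the outset; for the other mitochondrial lists and for single complexes they were added after seeing the data. Leaving out each array in turn gave 14 to 23 rises, 3 to 6 falls and a median difference of 0.05 to 0.07. Over all genes these fits called 13.8% to 18.5% higher and 12.8% to 14.7% lower, against 19.4% and 16.5% in the main fit. Without _x_at and _s_at probe sets, 49 members were tested and 11 rose, and with no filter 4 fell; other settings kept the counts of rises and falls within 1.5 times and the median within its spread between arrays. Without _x_at and _s_at probe sets, 4 genes turned: ATP5MG to -0.10, COX4I1 to -0.33, NDUFA2 to -0.025 and UQCRB to -0.20. SDHC turned to -0.20 with the mean of all probe sets, or of those past the filter, and TIMM8A to 0.00 (-0.0041) with the mean of all. Over all settings, rises and falls numbered 3 to 12 and 0 to 4 in complex I, 0 and 0 to 2 in complex II, 1 to 3 and 2 to 3 in complex III, 1 to 5 and 0 to 1 in complex IV, and 1 to 7 and 0 to 3 in complex V. The replicate number as a block gave 18 rises and 8 falls. NDUFA5 (-0.29) was then called lower at an adjusted p of 0.0354, and ATP5MG, COX6A1, NDUFA8, NDUFAB1 and NDUFS1 were no longer called. Deviations of same-numbered arrays had correlations of 0.11, 0.00 and 0.18. Those of differently numbered arrays ran from -0.15 (control 3 with knockdown 1) to 0.05 (control 2 with knockdown 1). Whether the numbers stand for a pairing was not tested. Only sign changes of differences that either fit called are listed.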

Other observations

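Probe sets paired with several symbols were outside the tests. Those that include a respiratory chain gene differed little: the probe set of NDUFS5 with RPL10 by a log2 difference of 0.05, that of UQCRH with its copy UQCRHL by 0.08, that of NDUFC2 with its readthrough transcript by 0.11, that of ATP5MF with ARMC2-AS1 by -0.01, and those of NDUFS8, whose gene holds microRNA genes, by 0.08 and -0.02.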
